A study of Gallus gallus with 8 samples.

Results

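Lysosomes are acidified by a vacuolar proton pump, filled with acid hydrolases and fed by endosomes whose membrane is sorted by coat and tether complexes. The pump has a soluble V1 sector that hydrolyses ATP and a membrane V0 sector that conducts protons. Retromer and the sorting nexins carry receptors out of endosomes, the HOPS and CORVET tethers join endosomes to each other and to lysosomes, and ESCRT proteins pinch cargo into the lumen. The genes described here were chosen by symbol alone: all genes named as ATP6V or ATP6AP proton pump subunits, cathepsins (CTS), LAMP, LAPTM and NPC membrane and sterol proteins, glycosidases such as HEXA, GLB1, GUSB and GAA, and the numbered VPS, SNX and CHMP sorting genes. Of 117 chicken genes with such symbols in the RefSeq table, 68 had a named probe on the array, out of 7824 genes with a named probe in all, and 49 had none.

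The arrays compared peripheral blood mononuclear cells (PBMC) with whole blood, both taken from 4 male broilers at 9 weeks of age. Each group had 4 arrays, and no treatment or genotype set the groups apart. PBMC were the cells kept from a Ficoll density gradient, while whole blood held all blood cells, which in birds include nucleated red cells and nucleated thrombocytes. RNA was extracted with TRIzol and hybridised in a single colour (Cy3) to 8 Agilent arrays of a custom chicken design, all on 1 slide. Replicate numbers name the bird, so that PBMC array 2 and whole blood array 2 came from bird 2.

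A level is the log2 of the background-subtracted signal of a probe minus the log2 of the 75th percentile of that array, which lay between 663.4 and 846 signal units. A difference is the mean level in PBMC minus the mean level in whole blood, on the log2 scale, so that a positive value means higher in PBMC. A gene is called changed when limma's adjusted p was under 0.05, with Benjamini-Hochberg adjustment over all 33756 features tested. Levels are compared between groups for the same probe and never between genes.

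The marker genes followed the sample labels. All 11 red cell markers on the array were higher in whole blood, and their summed share was 20.3 to 46.1 per 10000 of the array's signal in PBMC, against 134 to 144 in whole blood. All 8 T cell markers and all 6 thrombocyte markers tested were higher in PBMC, and the thrombocyte sum was 11.8 to 17.6 per 10000 in PBMC and 2.46 to 3.22 in whole blood. Of 9 monocyte and macrophage markers, 6 were on the array and 4 were tested, and all 4 were higher in PBMC. Their summed share was 1.49 to 3.02 per 10000 in PBMC and 0.184 to 0.434 in whole blood, with CD14 above background on no array and MARCO on no whole blood array. Of 5 heterophil markers tested, 3 were higher in whole blood and 2 did not pass. In these bulk samples, fewer cells of a type and less RNA per cell cannot be told apart, and the part of cell makeup in any difference given here was not tested.

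Of the 68 genes, 65 could be tested. Of these, 17 (26.2%) were higher in PBMC, 33 (50.8%) lay above PBMC in whole blood and 15 did not pass. Over all 5997 named genes tested, 42.2% were called higher in PBMC and 37.5% in whole blood, and over all features 39.7% and 39.4%. In either direction 76.9% of the lysosome and sorting genes were called, against 79.7% of named genes and 79.1% of features. The PBMC and whole blood arrays did not overlap for 47 of the 65 genes (72.3%), against 74.3% of named genes and 73.3% of features. Differences of at least 2-fold were called for 15 genes in PBMC and 22 in whole blood, where 61.2% of named genes had a called difference of that size in either direction. Fitted differences ran between -3.44 (CTSK) and 3.33 (ATP6V0D2, not an exact value, as its probe was above background on no whole blood array), with a median of -0.45, where the median over all named genes was 0.12. The share called was thus near that of the whole array, and the split between directions was where the values lay apart. The median of the 65 genes depended on the scaling. It was -0.10 after quantile normalization (named genes 0.20), -0.19 after cyclic loess (named genes 0.14) and -0.75 with median scaling (named genes -0.18).

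**Figure D1:**
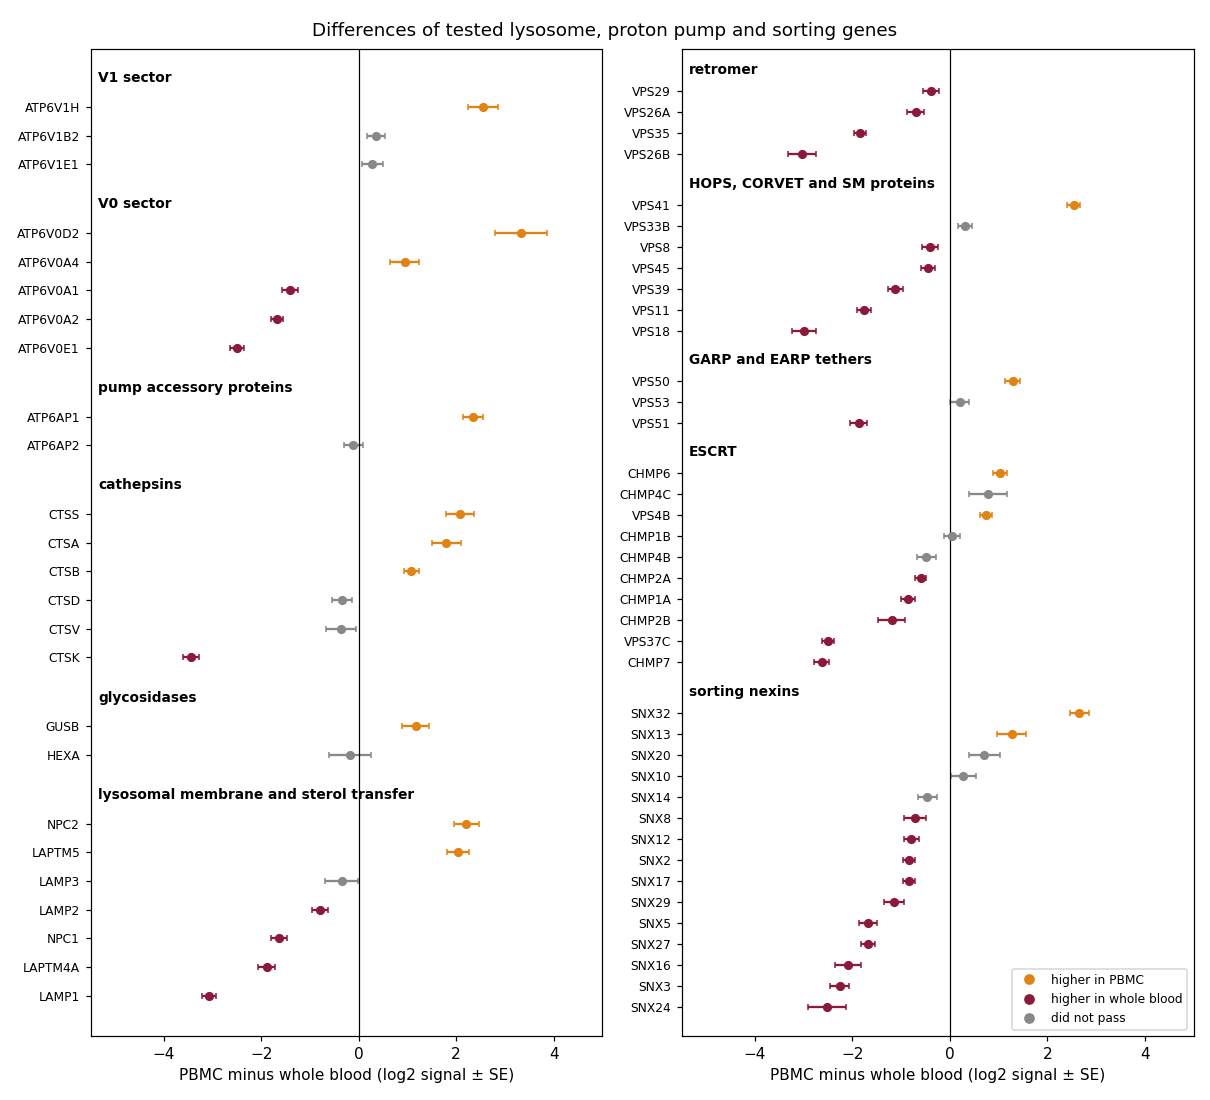
PBMC minus whole blood difference (horizontal axis, log2 signal, with its standard error) for the tested genes, grouped by role, with genes higher in PBMC, higher in whole blood and not past the test in separate colours. Sorting genes lie mostly left of 0 (25 of 39 higher in whole blood, against 37.5% of named genes), while pump and hydrolase genes lie on both sides.

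The split of calls lay furthest from that of all named genes (42.2% higher in PBMC, 37.5% in whole blood) among the sorting genes. Among 10 tested pump genes, 4 (40%) were higher in PBMC and 3 (30%) in whole blood, with a median difference of 0.32. Among 16 hydrolase and lysosomal membrane genes, 7 (43.8%) were higher in PBMC and 5 (31.2%) in whole blood, with a median of -0.26. Among 39 endosome sorting genes, 6 (15.4%) were higher in PBMC and 25 (64.1%) in whole blood, with a median of -0.72. Within birds, the 17 genes higher in PBMC were higher in PBMC in each of the 4 birds. Of the 33 genes higher in whole blood, 32 were lower in PBMC in each of the 4 birds, VPS8 being the exception. These differences come from the same arrays as the calls, so they are no separate test of them. The median difference over the 65 genes was -0.51, -0.52, -0.36 and -0.48 in birds 1 to 4.

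In the proton pump, subunits of the same sector went in opposite directions. ATP6V0D2, an isoform of the d subunit known in the mouse for its use in osteoclasts and macrophages, had levels of -3.59, -5.10, -3.82 and -3.63 in PBMC and -6.30, -8.26, -8.27 and -6.62 in whole blood. All 4 PBMC arrays read this probe well above background and no whole blood array did, so the size of the difference is not known. With whole blood levels set no lower than the lowest signal well above background on each array, it was 5.75-fold higher in PBMC. The fitted difference (3.33 ± 0.53 SE, limma adjusted p = 0.000332) rests on whole blood values that were not above background. A second probe gave 3.20 ± 0.29 SE and was likewise above background on no whole blood array, so it does not fix the size either. On the log2 scale the size depended on the background correction: normexp gave 0.70, and the authors' values, where no background was subtracted, gave 0.91. ATP6V0D2 passed the test in both. It entered the test only through the PBMC arrays, where it is high, so passing is no separate support.

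ATP6V1H, a regulatory subunit of the V1 sector, had levels of -3.05, -3.15, -2.72 and -2.51 in PBMC, against -5.81, -6.00, -5.18 and -4.65 in whole blood. It was 5.88-fold higher in PBMC (2.55 ± 0.30 SE, limma adjusted p = 4.41e-05), with only 2 of 4 whole blood arrays above background, and normexp gave 1.09 and the authors' values 1.25. The fitted size thus rests partly on whole blood values that were not above background. ATP6V1H too entered the test only through the PBMC arrays, where it is high, so passing is no separate support. ATP6AP1, an accessory protein needed to assemble the pump, had levels of 2.93, 2.86, 3.33 and 3.36 in PBMC and 0.47, 0.73, 0.62 and 1.30 in whole blood. Its 5.07-fold excess in PBMC (2.34 ± 0.21 SE, limma adjusted p = 8.76e-06) was seen with 3 detected probes (2.18 to 2.34). It was 1.69 in the mean of all probes, a mean that takes in a probe above background on no array.

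ATP6V0E1, a small membrane subunit of the V0 sector, showed the opposite direction. Its levels were 4.11, 3.78, 4.17 and 4.07 in PBMC and 6.66, 6.40, 6.52 and 6.54 in whole blood, so that all PBMC arrays lay below all whole blood arrays. It was 5.65-fold higher in whole blood (-2.50 ± 0.14 SE, limma adjusted p = 7.06e-07), and the difference was -1.87 after cyclic loess. The a subunit of V0, which anchors the proton channel and sets where the pump is sent, was measured as 3 isoforms. ATP6V0A2 had levels of 2.74, 2.51, 2.54 and 2.46 in PBMC, against 4.37, 4.06, 4.29 and 4.25 in whole blood, a difference of -1.68 ± 0.13 SE. ATP6V0A1 read -1.29, -1.34, -1.89 and -1.50 in PBMC and -0.05, -0.08, -0.26 and 0.01 in whole blood, a difference of -1.41 ± 0.16 SE.

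The third isoform, ATP6V0A4, which in mammals is best known from the kidney, was called higher in PBMC but its groups overlapped. Its levels were -3.40, -3.92, -3.70 and -2.75 in PBMC and -4.11, -4.64, -4.88 and -3.88 in whole blood (0.94 ± 0.30 SE, limma adjusted p = 0.018). The call did not hold without bird 3 (0.85, adjusted p = 0.0548), nor with 6 of the other settings of background, scaling or probes, where the difference was 0.32 to 0.63, nor within either slide row (0.92 and 0.95). ATP6V1B2, the ATP-binding B subunit, ATP6V1E1, part of the stalk, and ATP6AP2, the prorenin receptor, did not pass, with differences of 0.35 ± 0.18, 0.28 ± 0.21 and -0.11 ± 0.19 (SE). ATP6V1B2 passed without PBMC array 1 (0.48, adjusted p = 0.0276), and its other detected probes gave -0.93 and 0.10. The probe at -0.93 passed toward whole blood (± 0.17 SE, limma adjusted p = 0.000896). Quantile normalization and cyclic loess brought ATP6V1B2 (0.77 and 0.71) and ATP6V1E1 (0.62 and 0.57) past the test, and averaged probes did so for ATP6AP2 (-0.48, adjusted p = 0.0187). The other detected probe of ATP6AP2 passed toward whole blood (-0.85 ± 0.21 SE, limma adjusted p = 0.00389). ATP6V1C2, an isoform of the C subunit, was above background on 3 PBMC arrays and no whole blood array and was too dim to test.

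**Figure D2:**
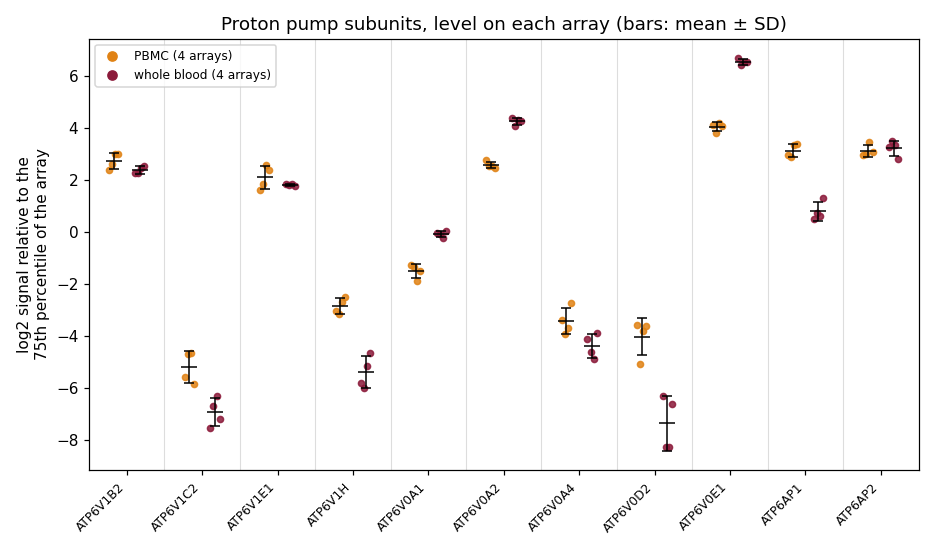
Level of each measured proton pump gene on each array (vertical axis, log2 signal scaled to the array's 75th percentile), PBMC left and whole blood right in each pair, with the mean and SD of 4 arrays. ATP6V0D2, ATP6V1H and ATP6AP1 lie higher in PBMC, while ATP6V0A1, ATP6V0A2 and ATP6V0E1 lie higher in whole blood with no overlap.

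Cathepsins, the lysosomal proteases, were divided in the same way. CTSS, a cysteine protease that trims the invariant chain during antigen presentation, had levels of 5.56, 5.72, 6.50 and 6.22 in PBMC, against 3.36, 3.78, 4.03 and 4.50 in whole blood. It was 4.23-fold higher in PBMC (2.08 ± 0.29 SE, limma adjusted p = 0.000125), with 2.68 after cyclic loess. CTSA, a carboxypeptidase that also protects other hydrolases, had levels of 5.15, 5.43, 6.18 and 5.76 in PBMC and 3.33, 3.65, 3.89 and 4.45 in whole blood, a 3.48-fold excess in PBMC (1.80 ± 0.29 SE). CTSB, a cysteine protease, was 2.11-fold higher in PBMC (1.08 ± 0.15 SE), with levels of 5.11, 5.16, 4.76 and 5.12 in PBMC and 3.98, 3.84, 3.87 and 4.15 in whole blood, and its other 3 probes gave 1.07 to 1.34.

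CTSK, the collagen-cleaving cathepsin best known from osteoclasts in mammals, had the largest difference toward whole blood among the 65 genes. Its levels were -1.64, -1.53, -1.98 and -1.93 in PBMC and 1.92, 1.46, 1.75 and 1.54 in whole blood, 10.8-fold higher in whole blood (-3.44 ± 0.17 SE, limma adjusted p = 4.44e-07). CTSK rested on 1 probe, as did several other genes given here. CTSD, the aspartic protease, did not pass (-0.34 ± 0.20 SE), but did without PBMC array 2 (-0.48), without bird 2 (-0.54), in the authors' values (-0.51) and with median scaling (-0.64). The gene named CTSV in the reference, whose probes carry the name CTSL2, did not pass either (-0.36 ± 0.31 SE), except without PBMC array 3, where its level was highest (4.10 against 2.56, 3.03 and 3.48 on the other PBMC arrays). CTSO was above background on no array.

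Among the glycosidases, GUSB was higher in PBMC and HEXA did not pass. HEXA, a subunit of hexosaminidase, had levels of 2.74, 2.69, 3.70 and 2.93 in PBMC and 3.98, 2.78, 3.87 and 2.14 in whole blood, and did not pass (-0.18 ± 0.43 SE). The birds disagreed on HEXA, with differences between -1.25 in bird 1 and 0.79 in bird 4. GUSB, the glucuronidase, had levels of 0.61, 0.32, 1.69 and 1.03 in PBMC and -0.36, -0.48, 0.05 and -0.24 in whole blood, a difference of 1.17 ± 0.28 SE (limma adjusted p = 0.00411).

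Among 7 membrane and sterol genes, 2 (28.6%) were higher in PBMC and 4 (57.1%) in whole blood, against 42.2% and 37.5% of all named genes. LAMP1, the main glycoprotein of the lysosomal membrane, had levels of 0.12, 0.34, 0.57 and 0.41 in PBMC and 3.44, 3.47, 3.61 and 3.23 in whole blood. It was 8.42-fold higher in whole blood (-3.07 ± 0.15 SE, limma adjusted p = 4.42e-07), and its 4 probes gave -3.15 to -1.18. LAMP2, its relative needed for fusion with autophagosomes, differed less (-0.80 ± 0.16 SE). Its other detected probe did not pass (-0.23 ± 0.23 SE, limma adjusted p = 0.385). LAPTM4A, a transmembrane protein of endosomes, had levels of 4.53, 4.68, 4.76 and 5.10 in PBMC and 6.43, 6.65, 6.58 and 6.97 in whole blood (-1.89 ± 0.18 SE, and -1.22 after cyclic loess).

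LAPTM5, the relative of LAPTM4A found in blood cells of mammals, went the other way. Its levels were 3.64, 3.92, 4.31 and 4.05 in PBMC, against 1.44, 2.02, 1.87 and 2.41 in whole blood, 4.13-fold higher in PBMC (2.04 ± 0.23 SE, limma adjusted p = 3.17e-05). The Niemann-Pick type C proteins, which pass cholesterol out of the lysosome, were also on opposite sides. NPC2, the soluble carrier, had levels of 4.71, 4.48, 4.89 and 4.69 in PBMC and 1.80, 2.55, 2.42 and 3.16 in whole blood (2.21 ± 0.26 SE), while NPC1, the membrane partner, had levels of -0.19, 0.28, 0.20 and 0.08 in PBMC and 1.84, 1.45, 1.92 and 1.70 in whole blood (-1.64 ± 0.16 SE). The NPC2 call was lost when its probes were averaged (1.27, adjusted p = 0.111). The other probe was above background on 2 arrays of each group.

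**Figure D3:**
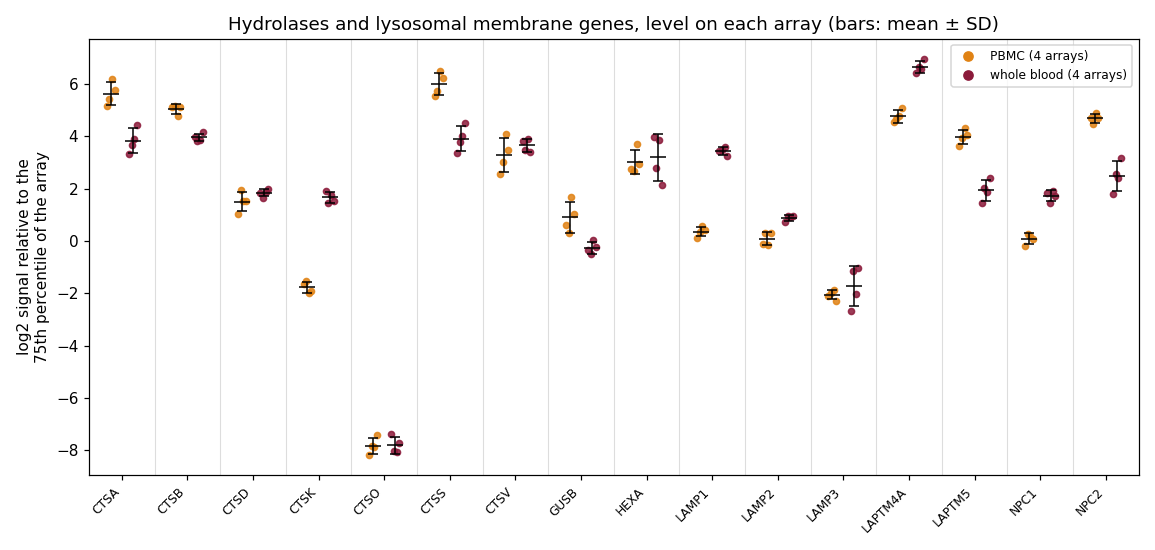
Level of the measured hydrolase and lysosomal membrane genes on each array (vertical axis, log2 signal scaled to the array's 75th percentile), PBMC left and whole blood right in each pair, with the mean and SD of 4 arrays. CTSK and LAMP1 lie higher in whole blood and CTSS, LAPTM5 and NPC2 higher in PBMC, with no overlap, and the whole blood values of HEXA are widely spread.

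LAMP3, a glycoprotein of mature dendritic cells in mammals, could not be read as 1 value. Its brighter probe did not pass (-0.35 ± 0.34 SE), with levels between -2.29 and -1.89 in PBMC and between -2.67 and -1.05 in whole blood. It passed toward whole blood without whole blood array 1 (-0.67, adjusted p = 0.0407) and in the authors' values (-0.59, adjusted p = 0.0353). The slide rows disagreed in sign, with -1.05 (adjusted p = 0.00833) in the row of birds 2 and 4 and 0.35 (adjusted p = 0.327) in the row of birds 1 and 3. The other probe gave 3.03 ± 0.21 SE and was above background on all 4 PBMC arrays and 1 whole blood array. Averaged, the probes gave 1.34 (adjusted p = 0.000524).

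Some of these genes varied from array to array in a shared order, with different birds highest in PBMC and in whole blood. CTSA, CTSS and LAPTM5 were each highest on PBMC array 3 and whole blood array 4 and lowest on PBMC array 1 and whole blood array 1. Those 4 arrays also held the highest and the lowest sum of the monocyte markers within their group: 3.02 on PBMC array 3 and 1.49 on PBMC array 1, and 0.434 on whole blood array 4 and 0.184 on whole blood array 1, per 10000 of the array's signal. The heterophil marker sum had its extremes on the same 4 arrays: 0.887 on PBMC array 3 and 0.3 on PBMC array 1, and 1.27 on whole blood array 4 and 0.736 on whole blood array 1. The T cell sum was also highest on PBMC array 3 (23.5) and lowest on array 1 of both groups (17.2 in PBMC and 3.58 in whole blood). The red cell sum was lowest on PBMC array 3 (20.3, against 36.4 to 46.1 on the other PBMC arrays). In whole blood it was lowest on array 1 (134, against 140 to 144). The B cell and thrombocyte sums were also lowest on PBMC array 3 (2.39 and 11.8). The thrombocyte sum was lowest on whole blood array 1 (2.46). A sum of cytotoxic cell markers was lowest on array 1 of both groups (0.469 in PBMC and 0.0548 in whole blood). The B cell sum was highest on those arrays (4.05 in PBMC and 0.503 in whole blood). With CTSA, CTSS and LAPTM5 counted, 5 of the 17 genes higher in PBMC were highest on both PBMC array 3 and whole blood array 4. So were 2 of the 33 higher in whole blood and 1 of the 15 that did not pass. Lowest on both arrays numbered 1 were 3, 3 and 4 genes of these groups, the first 3 being CTSA, CTSS and LAPTM5. Among the other genes, only VPS35, higher in whole blood, had both its highest and its lowest values on these arrays. CTSA, CTSS and LAPTM5 were picked after their values were seen, and the part of the content of any of these cell types was not tested.

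All 4 measured retromer subunits were called higher in whole blood, as were 64.1% of the sorting genes and 37.5% of all named genes. VPS35, its scaffold, had levels of 1.23, 1.30, 1.34 and 1.26 in PBMC and 3.00, 3.20, 3.09 and 3.25 in whole blood, 3.61-fold higher in whole blood (-1.85 ± 0.12 SE, limma adjusted p = 1.44e-06). VPS26B, one of its arrestin-like subunits, had levels of -2.17, -0.96, -1.25 and -1.04 in PBMC, against 1.24, 1.89, 1.64 and 1.97 in whole blood, 8.24-fold higher in whole blood (-3.04 ± 0.29 SE). The other arrestin-like subunit, VPS26A, differed by -0.70 ± 0.17 SE, with levels of 1.26 to 1.61 in PBMC and 1.96 to 2.54 in whole blood, and did not pass within the slide row of birds 1 and 3 alone (-0.68). VPS29 was at the threshold (-0.39 ± 0.16 SE, limma adjusted p = 0.0447) and its groups overlapped. Its call was lost without PBMC array 1, 2 or 4, without whole blood array 1, 2 or 3, and without any of the 4 birds (adjusted p = 0.0537 to 0.18), and after quantile normalization (-0.17) or cyclic loess (-0.19). The VPS29 call was lost too with averaged probes (-0.31), without a filter (-0.39) and within either slide row alone (-0.30 and -0.47).

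The HOPS and CORVET tethers and the SM proteins VPS33B and VPS45, counted together, had 1 gene higher in PBMC, 5 higher in whole blood and 1 that did not pass. These shares were 14.3% higher in PBMC and 71.4% in whole blood, against 42.2% and 37.5% of all named genes. VPS41, a subunit particular to HOPS, had levels of 2.01, 1.79, 2.18 and 2.16 in PBMC and -0.54, -0.40, -0.64 and -0.46 in whole blood. It was 5.83-fold higher in PBMC (2.54 ± 0.14 SE, limma adjusted p = 6.87e-07), and its other 3 probes gave 2.31 to 2.94. Of these, the probe at 2.49 was above background on every array. The probe at 2.31 was above background on 3 of 4 whole blood arrays and that at 2.94 on none. Both entered the test only through the PBMC arrays and do not fix the size. VPS18 and VPS11, the core subunits shared by HOPS and CORVET that were measured, had the opposite sign. VPS18 had levels of -3.00, -2.88, -2.65 and -2.02 in PBMC and 0.37, 0.46, -0.01 and 0.59 in whole blood, 7.94-fold higher in whole blood (-2.99 ± 0.24 SE, and -2.40 with normexp). VPS11 had levels of 1.02, 1.06, 1.14 and 0.79 in PBMC and 2.94, 2.63, 2.58 and 2.88 in whole blood (-1.76 ± 0.15 SE).

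VPS39, also particular to HOPS, was higher in whole blood (-1.12 ± 0.15 SE). VPS8, a subunit particular to CORVET, was called at -0.41 ± 0.16 SE (limma adjusted p = 0.0411), but the groups overlapped, bird 3 went the other way, and the call was lost with the bird as a block (adjusted p = 0.0685). It was lost too without PBMC array 1, 2 or 4, without whole blood array 1, 2 or 4, and without bird 1, 2 or 4 (adjusted p = 0.0589 to 0.194). Normexp (-0.14), the authors' values (-0.25), no filter (-0.41) and the slide row of birds 1 and 3 alone (-0.15) lost it as well. The VPS8 probe was above background on 3 of 4 PBMC arrays and entered the test only through the whole blood arrays. VPS45, an SM protein of early endosomes, had a difference of -0.45 ± 0.14 SE on the probe used and -1.68 to -0.35 on its other 5 probes. Its call was lost without bird 4 (-0.36, adjusted p = 0.0775), within either slide row alone (-0.54 and -0.35) and after cyclic loess (-0.01), and the sign turned after quantile normalization (0.06).

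VPS33B, an SM protein known in mammals for platelet granules, did not pass on its brightest probe, with 0.31 ± 0.14 SE, except without whole blood array 3 (0.38, adjusted p = 0.0483). Its other 3 probes each lay higher in PBMC, by 1.84 to 2.05, and the average over its probes was 1.55 (adjusted p = 9.38e-06).

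**Figure D4:**
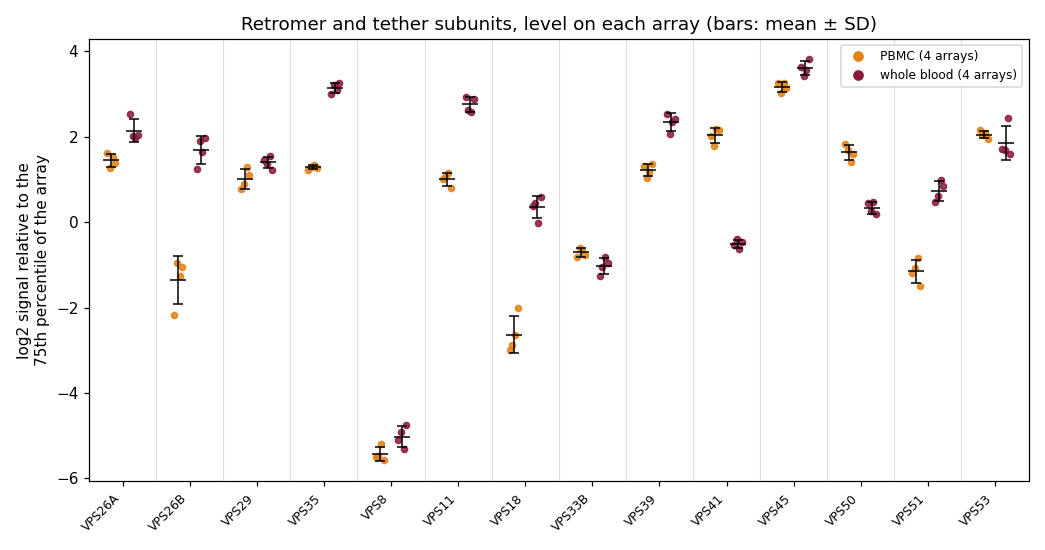
Level of each measured retromer and tether gene on each array (vertical axis, log2 signal scaled to the array's 75th percentile), PBMC left and whole blood right in each pair, with the mean and SD of 4 arrays. VPS26B, VPS35, VPS11, VPS18 and VPS51 lie higher in whole blood and VPS41 and VPS50 higher in PBMC, with no overlap.

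GARP and EARP are tethers that share most subunits and receive vesicles at the Golgi and at endosomes. VPS51, a shared subunit, had levels of -1.18, -1.07, -0.85 and -1.49 in PBMC and 0.47, 0.61, 0.98 and 0.84 in whole blood (-1.87 ± 0.18 SE), and its 5 probes gave -2.18 to -1.87. VPS50, the subunit particular to EARP, had levels of 1.83, 1.70, 1.41 and 1.59 in PBMC, against 0.44, 0.26, 0.47 and 0.18 in whole blood (1.29 ± 0.15 SE), and its 4 probes gave 1.02 to 1.29. The remaining shared subunit measured, VPS53, did not pass (0.20 ± 0.20 SE), except without whole blood array 3 (0.39), after quantile normalization (0.53) and after cyclic loess (0.49), and its probes gave -0.50 to 0.20. Every probe of VPS51 lay below 0 and every probe of VPS50 above it.

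ESCRT genes were split between 2 (20%) higher in PBMC, 5 (50%) higher in whole blood and 3 that did not pass. In either direction 70% were called, against 79.7% of all named genes (42.2% higher in PBMC and 37.5% in whole blood). CHMP7, an ESCRT-III protein that also acts at the nuclear envelope, had levels of 1.91, 1.75, 1.49 and 1.90 in PBMC and 4.32, 4.23, 4.42 and 4.60 in whole blood. It was 6.18-fold higher in whole blood (-2.63 ± 0.15 SE, limma adjusted p = 8.21e-07), and its 6 probes gave -3.38 to -2.11. VPS37C, a subunit of ESCRT-I, had levels of 2.18, 2.16, 2.04 and 1.99 in PBMC and 4.63, 4.49, 4.68 and 4.59 in whole blood, 5.67-fold higher in whole blood (-2.50 ± 0.12 SE). CHMP6, which links ESCRT-II to ESCRT-III, was 2.04-fold higher in PBMC, with levels of 3.00, 3.12, 3.16 and 3.08 in PBMC and 1.99, 1.82, 2.33 and 2.12 in whole blood (1.03 ± 0.14 SE).

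Smaller differences toward whole blood were found for CHMP1A (-0.86 ± 0.15 SE), CHMP2A (-0.60 ± 0.12 SE) and CHMP2B (-1.19 ± 0.28 SE), all ESCRT-III subunits. The CHMP2A call was lost after quantile normalization (-0.10) and cyclic loess (-0.19), and within the slide row of birds 1 and 3 alone (-0.47). Its other detected probes differed more, by -1.81 ± 0.12 SE and -0.96 ± 0.17 SE, and both passed. CHMP2B differed by -0.49 in the slide row of birds 2 and 4, where its call was lost (limma adjusted p = 0.0785). In the row of birds 1 and 3 CHMP2B differed by -1.89, and its other probe gave -0.89 ± 0.37 SE (limma adjusted p = 0.0505). VPS4B, an ATPase that takes ESCRT-III filaments apart, was called higher in PBMC on its brightest probe (0.74 ± 0.13 SE), while a second probe was called higher in whole blood (-0.83 ± 0.16 SE) and another gave -0.18. CHMP4B (-0.48 ± 0.20 SE) and CHMP4C (0.78 ± 0.39 SE), paralogs of the main filament subunit, did not pass. With the bird as a block both did (adjusted p = 0.0136 for CHMP4B and 0.0173 for CHMP4C). CHMP4B also passed without PBMC array 2, without whole blood array 1, and with normexp, the authors' values, median scaling, averaged probes, features above background on all 8 arrays or the slide row as a block (-0.78 to -0.38). CHMP4C passed with averaged probes (1.37, adjusted p = 0.00305). The CHMP4C probe used was above background on 3 of 4 whole blood arrays and entered the test only through the PBMC arrays. CHMP1B did not pass (0.05 ± 0.16 SE), except after quantile normalization (0.45, adjusted p = 0.0236).

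Of 15 sorting nexins tested, which bind phosphoinositides on endosomes, 2 (13.3%) were higher in PBMC and 10 (66.7%) in whole blood. Over all named genes the shares were 42.2% and 37.5%. SNX3, which recruits retromer to early endosomes, had levels of 2.61, 2.04, 2.49 and 2.46 in PBMC and 4.87, 4.60, 4.92 and 4.25 in whole blood, 4.78-fold higher in whole blood (-2.26 ± 0.20 SE), with 3 probes at -2.26 to -2.12. SNX27, which couples cargo to retromer through its PDZ domain, had levels of 0.58, 0.86, 0.43 and 0.58 in PBMC and 2.22, 2.18, 2.54 and 2.24 in whole blood (-1.68 ± 0.15 SE). SNX24 had levels of -2.01, -0.64, -1.43 and -0.59 in PBMC and 2.02, 1.31, 0.57 and 1.55 in whole blood (-2.53 ± 0.39 SE), and SNX16 differed by -2.09 ± 0.26 SE. SNX3 and SNX27 had the same sign as the 4 retromer subunits, and so did most of the nexins called.

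Among the nexins that bend membrane with retromer, SNX5 (-1.68 ± 0.19 SE) and SNX2 (-0.84 ± 0.13 SE) were higher in whole blood. SNX32, a close relative of SNX5 and SNX6, was the exception, with levels of 0.33, -0.05, 0.73 and 0.51 in PBMC and -2.43, -2.42, -2.21 and -2.06 in whole blood. It was 6.31-fold higher in PBMC (2.66 ± 0.19 SE, limma adjusted p = 2.13e-06), and its 3 probes gave 2.66 to 2.85. The reference lists SNX6 as another name of this gene, so which of these paralogs the probes read is uncertain. SNX13, the other nexin higher in PBMC, differed by 1.27 ± 0.30 SE, with 0.67 under normexp, 1.91 in the slide row of birds 2 and 4, and 0.63 (adjusted p = 0.171) in the row of birds 1 and 3.

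SNX29 (-1.14 ± 0.21 SE), SNX17 (-0.84 ± 0.12 SE), SNX12 (-0.79 ± 0.15 SE) and SNX8 (-0.72 ± 0.23 SE) completed the nexins higher in whole blood, and the SNX8 call was lost without bird 4 (-0.47, adjusted p = 0.0781) and within the slide row of birds 1 and 3 alone (-0.40). SNX10, SNX14 and SNX20 did not pass (0.28 ± 0.26, -0.46 ± 0.20 and 0.71 ± 0.32, SE). With the bird as a block, SNX14 (adjusted p = 0.0278) and SNX20 (adjusted p = 0.00872) did, and SNX14 also passed without PBMC array 1 or whole blood array 4, in the authors' values, with median scaling, with averaged probes and with the slide row as a block (-0.77 to -0.46). SNX20 also passed with normexp (0.68), quantile normalization (1.01) and cyclic loess (0.97). SNX19 was above background on no array.

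Probes of the same gene mostly gave the same direction. Of 161 tested probes of the 65 genes, several fell on 43 genes, 7 of these genes had probes of opposite sign, and VPS4B alone had probes that passed in opposite directions. The probes of 10 genes lay more than 1 apart on the log2 scale. Genes with 1 probe could not be compared in this way. Among them were ATP6V0A2, CTSK, GUSB, LAPTM5, NPC1, VPS11, VPS18, VPS26A, VPS26B and VPS35.

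**Figure D5:**
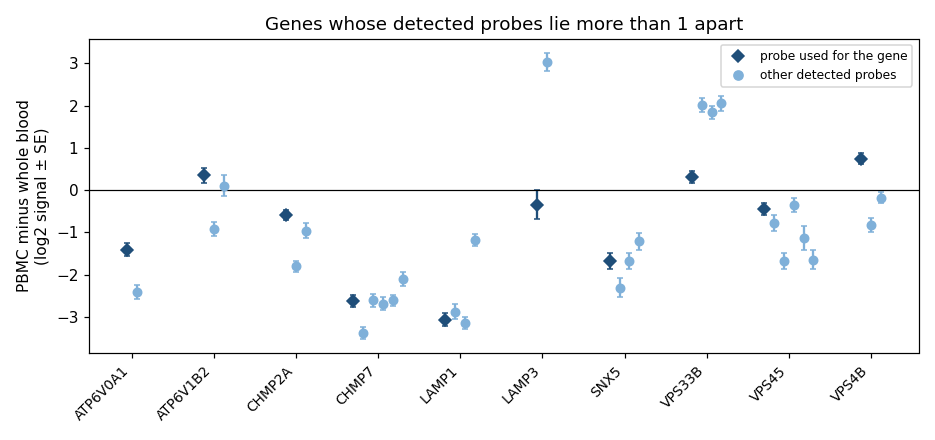
PBMC minus whole blood difference (vertical axis, log2 signal, with its standard error) of every detected probe of the 10 genes whose probes lie more than 1 apart, with the probe used for the gene as a diamond. The probes of CHMP7 and LAMP1 all lie below 0, while LAMP3 has a probe at 3.03 and VPS33B probes at 1.84 to 2.05 beside a used probe nearer 0.

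Related genes outside the symbol rule were read from lists of lysosomal and endosomal genes. For comparison with the counts of every list, 42.2% of all named genes tested were called higher in PBMC and 37.5% in whole blood. Of 16 other acid hydrolases and activators tested, 9 were higher in PBMC and 6 in whole blood, with a median difference of 0.98. IDUA, the iduronidase (2.80 ± 0.16 SE), and ARSB, a sulfatase (2.11 ± 0.20 SE), were among those higher in PBMC. GALC, the galactosylceramidase, entered the test only through the PBMC arrays. As GALC was above background on no whole blood array, the size of its difference is not known. It was 2.41-fold higher in PBMC with whole blood set no lower than the lowest signal well above background on each array. GLA, the alpha-galactosidase (-1.98 ± 0.26 SE), and NAGLU, an N-acetylglucosaminidase (-1.43 ± 0.19 SE), were among those higher in whole blood.

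Of 4 cathepsin inhibitors tested, 3 were higher in PBMC. CSTB, a cytosolic cystatin, had levels of 4.18, 3.25, 3.15 and 3.25 in PBMC and 1.03, 0.53, 1.13 and 0.69 in whole blood (2.61 ± 0.26 SE). CST7, a cystatin of the endosomal pathway, differed by 2.34 ± 0.22 SE, and the serpin SERPINB6 by 2.29 ± 0.16 SE. CST3, the secreted cystatin, did not pass (-0.40 ± 0.23 SE).

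Of 13 genes of mannose phosphate targeting and clathrin adaptors, 3 were higher in PBMC, 4 in whole blood and 6 did not pass. IGF2R, the large mannose phosphate receptor that brings hydrolases to endosomes, had levels of 2.15, 2.47, 2.24 and 2.48 in PBMC and 4.67, 4.48, 4.50 and 4.95 in whole blood (-2.32 ± 0.16 SE). CLTA, a clathrin light chain, differed by 1.56 ± 0.14 SE. Of 8 lysosomal membrane proteins and channels, 3 were higher in PBMC, led by the channel TMEM175 (2.85 ± 0.15 SE) and LITAF (2.41 ± 0.41 SE), and 4 in whole blood. Differences on that list reached -1.57 toward whole blood.

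Of 9 lysosome regulators and Ragulator genes, 3 were higher in PBMC and 6 in whole blood, where 79.7% of all named genes were called. The related transcription factors of the lysosome were on opposite sides: TFEC had levels of -3.24, -1.96, -1.36 and -1.60 in PBMC and -5.83, -4.69, -4.96 and -4.35 in whole blood (2.91 ± 0.44 SE), and MITF differed by 2.40 ± 0.16 SE, while TFEB differed by -0.91 ± 0.16 SE, with levels of 1.37 to 1.83 in PBMC and 2.28 to 2.71 in whole blood. TFEC was above background on 3 of 4 whole blood arrays and entered the test only through the PBMC arrays, so passing is no separate support. Of 14 other genes of retromer, retriever, WASH and phosphoinositide complexes, 5 were higher in PBMC and 8 in whole blood, with differences between -2.20 and 1.98. CCDC93, COMMD4 and COMMD3 of the retriever-associated complex were at 1.98, 1.90 and 1.73, and COMMD5 of the same complex was higher in whole blood (-0.79). Of 5 other ESCRT genes, 1 was higher in PBMC and 2 in whole blood.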

How the data were processed

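Whole blood and PBMC of 4 birds were read on 8 arrays. Spot intensities were background-subtracted within each array by Agilent Feature Extraction (version 10.7.3.1 per the file headers, 10.7.1.1 per the submitters' processing notes) before they were deposited, with galGal3 as the build per the file headers, and no scaling between arrays had been applied. The authors' deposited table holds log2 values of 46154 features, each equal to the log2 median signal less a constant of that array, so that columns have a median of 0.

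After removing 1319 control spots per array and spots with an outlier mark, spots of a probe were averaged, and log2 of the processed signal was scaled to the 75th percentile of each array. Between 64.4% and 72.1% of probes were well above background, and array number limits the precision. Of 60539 probes, 31.1% were named through RefSeq accessions, gene numbers or symbols (assembly GRCg7b, so no coordinates are given). The probe of highest mean level stood for its gene, which was tested if that probe cleared background on every array of 1 group or both. No probe was saturated. Differences were tested with limma 3.58.1 (lmFit, eBayes; R 4.3.3; threshold 0.05, Benjamini-Hochberg), and the code was tested on simulated data. SE is the standard error of a difference. For ATP6V0D2 and GALC, a fold was taken with dim levels set no lower than the lowest signal well above background on each array. That signal was taken over all probes and is not the detection limit of the probe.

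Genes to be named were all pump genes, up to 6 per direction and role with the largest called differences, up to 3 with the smallest uncalled ones, genes above background in 1 group only, and up to 3 per direction of each list. VPS8, VPS26A, VPS29, VPS39, VPS45, SNX2, SNX8, SNX12, SNX17, SNX19, CTSO, TFEB, CST3 and COMMD5 were named after their values were seen. The genes and lists were chosen with earlier results of these data known. Same-numbered arrays come from the same bird per the labels, and their deviations from the group means correlated (0.359 to 0.478, against -0.279 to 0.0439 between birds). The alternatives were normexp on median signals (offset 50), the authors' values, other scalings, averaged probes, 2 filters, the bird and the slide row as blocks, each row alone, and leaving out arrays or birds. Each probe as its own feature was added after seeing the data. Rows of the slide held both groups, while a slide column held 1 group only, so column and group cannot be told apart. Some genes counted in the totals are not reported here by name and are left out of the plots.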

Additional observations from a re-analysis of the deposited data

Results flagged for a closer look

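For 9 of 130 combinations of gene and group, 1 array lay far from the other 3 of its group, with a gap to the nearest array, as a share of the group's range, past Dixon's critical value. Chance gives such a gap in about 1 in 20 groups.

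Among the pump and protease genes, ATP6V0D2 was at -5.10 on PBMC array 2, where the other PBMC arrays lay between -3.82 and -3.59, still above every whole blood array. CTSB was at 4.76 on PBMC array 3, with the others between 5.11 and 5.16. Among the tethers and retromer, VPS53 was at 2.44 on whole blood array 3, with the others between 1.60 and 1.71, and VPS26A at 2.54 on whole blood array 1, with the others between 1.96 and 2.04.

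Among ESCRT genes, CHMP1B was at 2.54 on PBMC array 4 (others 2.36 to 2.39) and CHMP4C at -6.96 on whole blood array 1 (others -5.43 to -5.19). Among the nexins, SNX16 was at -0.58 on whole blood array 1 (others -1.54 to -1.38), SNX20 at 0.50 on whole blood array 4 (others 1.60 to 1.80) and SNX27 at 2.54 on whole blood array 3 (others 2.18 to 2.24). The cause of these values was not tested.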

How the results depend on the processing

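Over 24 alternatives the counts of genes higher in PBMC (17) and in whole blood (33) stayed within 1.5 times these values, between 15 and 21 in PBMC and between 27 and 36 in whole blood. Leaving out 1 array or bird gave 16 to 19 and 29 to 34. In all, 37 genes were called under every alternative (11 higher in PBMC, 26 in whole blood), and LAMP3 alone was called in both directions (toward PBMC with averaged probes). With the replicate block (birds paired), 19 were higher in PBMC and 34 in whole blood; VPS8 lost its call and CHMP4B, CHMP4C, SNX14 and SNX20 gained one. Median scaling moved the median of all features to -0.30 and that of the 65 genes to -0.75, and the authors' values moved them to -0.15 and -0.59. Quantile normalization moved them to -0.02 and -0.10, and cyclic loess to -0.10 and -0.19. Named genes had medians of 0.20 and 0.14 in these 2 settings. ATP6V0D2, ATP6V1H, VPS8 and CHMP4C were not tested among features above background on all 8 arrays. Signal over background limits genes that are dim in a group.

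Signs turned for genes that did not pass, and for VPS4B and VPS45. Quantile normalization gave 0.39 for ATP6AP2, 0.03 for CHMP4B, 0.14 for CTSV, 0.30 for HEXA, 0.02 for SNX14 and 0.06 for VPS45. Cyclic loess gave 0.31 for ATP6AP2, 0.08 for CTSV and 0.23 for HEXA. Median scaling gave -0.02 for ATP6V1E1, -0.26 for CHMP1B, -0.03 for SNX10 and -0.11 for VPS53, and the authors' values gave -0.07 for CHMP1B. Averaged probes gave -0.16 for ATP6V1B2, -0.07 for CHMP1B, 1.34 for LAMP3, -0.09 for VPS4B and -0.11 for VPS53. Single slide rows gave 0.35 for HEXA (birds 2 and 4) and 0.35 for LAMP3 (birds 1 and 3). Leaving out an array or bird turned ATP6AP2 (0.03), CHMP1B (-0.06 to 0.13 over these fits, -0.04 without bird 3) and HEXA (-0.53 to 0.18). The cause was not tested.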
